A study of Saccharomyces cerevisiae with 6 samples.

Results

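The mitochondrial matrix chaperones and the matrix protease Pim1 of the budding yeast Saccharomyces cerevisiae are described here in cells grown with and without glycolaldehyde. The set holds 9 genes, SSC1, MDJ1, MGE1, ECM10, SSQ1, HSP60, HSP10, HSP78 and PIM1, out of 6225 gene identifiers on the array. They were listed by the known place and role of their products in the matrix, and each was found through the probe that carries its open reading frame name (YJR045C, YFL016C, YOR232W, YEL030W, YLR369W, YLR259C, YOR020C, YDR258C and YBL022C, in the same order). Each gene had 1 probe, and all 9 genes had measured values and passed the filter on dim probes.

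Proteins made in the cytosol enter the mitochondrial matrix unfolded. The Hsp70 protein Ssc1 helps to pull them across the inner membrane and then folds them together with its J-domain partner Mdj1 and the nucleotide exchange factor Mge1. Many of these proteins go on to the barrel-shaped chaperonin built from Hsp60 and its lid Hsp10. Hsp78 pulls aggregated matrix proteins apart, and Pim1, the Lon-type ATP-dependent protease, breaks down those that stay misfolded. Transcripts of several of these genes are known to rise in yeast under heat shock.

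The samples were cells of BY4743, a laboratory strain derived from S288C. Glycolaldehyde cells were exposed for 4 h to 10 mM of this small reactive hydroxyaldehyde in static culture at 30 °C, in minimal medium with 2% glucose, and untreated cells were kept in that medium without it. Each group had 3 samples, prepared from separate starter cultures and measured on a single-colour Agilent array each. The labels leave points unclear: they call the strain haploid although BY4743 is a diploid, they call the growth both anaerobic and static, and whether the overnight culture also received the aldehyde is not plain from the growth text. Their free-text descriptions name the opposite treatment to the title and treatment entry for every sample; groups follow the titles. Probes of HIS3, LEU2 and URA3, which are deleted in BY4743, were well above background on 0 of 6 arrays, while LYS2 and MET17, of which this strain keeps a working copy, were above it on 6 of 6. Probes of STE2, BAR1, MFA1 and MFA2, genes of a cells, were also above background on 6 of 6 arrays. So were those of STE3, MF(ALPHA)1 and MF(ALPHA)2, of alpha cells, and of STE5, STE18 and RME1, of haploid cells. Signal above background thus does not tell haploid from diploid cells here. These mating type and haploid probes were dim. They ran from 0.0075 (MFA2, untreated replicate 2) to 0.118 (RME1, glycolaldehyde replicate 2) of the array's 75th percentile of probe values. What these levels mean for ploidy was not tested.

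Arrays are tied to samples differently in the value table and in the scanner files. The authors' value table, whose columns carry sample identifiers, was used here. Every column of it matched 1 scanner file, but for 3 samples that file is attached to another sample, and 2 arrays thereby change group. The 2 arrays are those of glycolaldehyde replicate 1 and untreated replicate 3 in the value table. The results under either record were known when the value table was chosen, and the labels do not settle which record is right. Values with the files as attached, called the scanner-file record, and values from the 4 arrays that fall in the same group either way, called the 4 agreed arrays (2 per group), stand beside the results. Replicate 3 of both groups was on slide 3 and scan day 2, and all other arrays were scanned on day 1. The 4 agreed arrays are untreated replicates 1 and 2 and glycolaldehyde replicates 2 and 3. Scan day 2 is thus present only in their glycolaldehyde group, so this subset does not separate treatment from scan day. How far scan day accounts for calls that change in it was not tested. On arrays of the same group, replicates 1 and 2 differed with an SD of 0.0914 to 0.103 on the log2 scale over genes above background, and replicate 3 differed from them with an SD of 0.18 to 0.204. Arrays of different groups differed with an SD of 0.402 to 0.459, so the arrays lay in 2 sets of 3 that match the groups of the value table, and the scanner-file record puts arrays of both sets into each of its groups. All 378 spots of the 9 probes (7 spots per probe and array) were well above background and 0 spots on any array were saturated. The SD of log2 signal over the 7 spots was 0.0145 to 0.136, with a median of 0.0579. The precision of the comparison is limited by the small number of arrays.

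Transcripts of 8 of the 9 genes rose with glycolaldehyde, 0 fell, and ECM10 did not pass (limma, adjusted p under 0.05 over 5944 genes tested). The rises were modest, between 1.13-fold for SSC1 and 1.83-fold for HSP10, and 0 genes reached 2-fold. HSP10, PIM1, HSP60 and HSP78 had the larger rises, and the Hsp70 genes SSC1, SSQ1 and ECM10 had the smallest changes in this fit. Of all genes tested, 29.6% rose, 23.5% fell and 53.1% were called in either direction, so a call alone is common in this comparison. The median log2 change of the 9 genes was 0.32, against 0.03 over all genes tested. The 3 glycolaldehyde arrays lay on 1 side of the 3 untreated arrays for 8 of the 9 genes, where 60.9% of all genes tested did so. With the scanner-file record 0 of the 9 genes passed, as did 0 of all 5924 genes then tested (0% called, with 134 genes at an unadjusted p under 0.05, of which 0 were among the 9). In the 4 agreed arrays 6 of the 9 genes rose and 0 fell, where 48.4% of all genes tested passed, 26.2% upwards and 22.1% downwards.

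**Figure D1:**
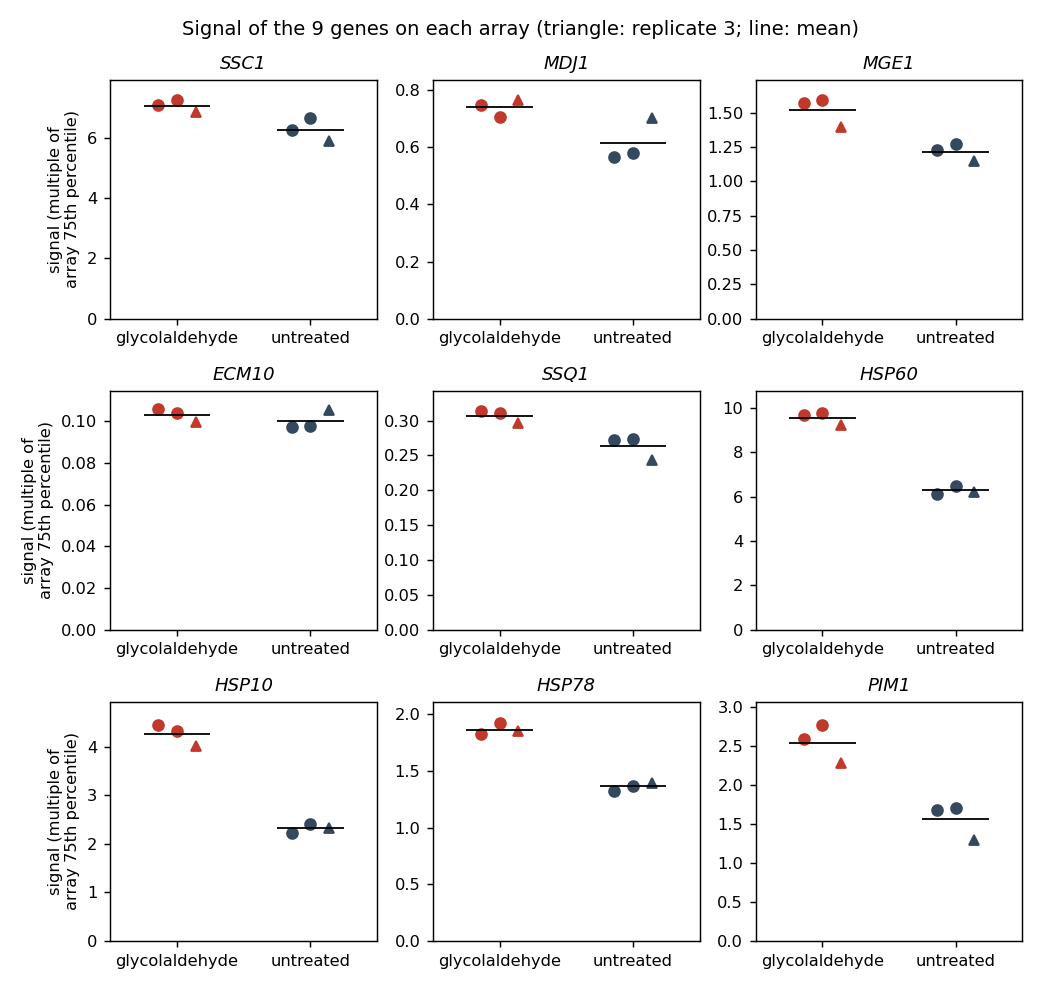
Signal of each of the 9 genes on each array, as a multiple of that array's 75th percentile of probe values (vertical axes start at 0 and differ between panels); red points are glycolaldehyde arrays, dark points untreated arrays, triangles replicate 3 (slide 3, scan day 2) and lines group means. For HSP10 the 3 glycolaldehyde arrays lie at 4 or above and the untreated arrays between 2.22 and 2.41, and for ECM10 the groups overlap.

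The chaperonin genes HSP60 and HSP10 encode the barrel and the lid of the same folding chamber. HSP10 had deposited intensities of 38904, 38730 and 55006 on glycolaldehyde arrays 1 to 3, against 21321, 21919 and 29701 on untreated arrays 1 to 3. The arrays of scan day 2 were brighter in both groups, so signals are given from here on as multiples of each array's own 75th percentile, which cannot be compared between probes. On that scale HSP10 was at 4.44, 4.31 and 4.00 on glycolaldehyde arrays, against 2.22, 2.41 and 2.33 on untreated arrays. The groups lay far apart, and the lowest glycolaldehyde array was well above the highest untreated array. HSP10 rose by 0.87 ± 0.06 on the log2 scale (limma's moderated SE, n = 3 per group), or 1.83-fold, with an adjusted p of 4.2e-05 in limma.

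HSP60 was at 9.68, 9.79 and 9.22 on glycolaldehyde arrays, against 6.13, 6.50 and 6.23 on untreated arrays. All glycolaldehyde arrays were above all untreated arrays, and the arrays of scan day 2 stood with their groups. HSP60 rose by 0.61 ± 0.05 on the log2 scale, or 1.52-fold (adjusted p = 0.00011 in limma). The log2 change of HSP60 was thus below that of its partner by 0.27, and the HSP60 minus HSP10 difference was 1.12, 1.18 and 1.20 on glycolaldehyde arrays, against 1.47, 1.43 and 1.42 on untreated arrays. An exact permutation test of the difference over the 20 splits of 3 against 3 gave a two-sided p of 0.1, the smallest this design allows (0.3 after Benjamini-Hochberg adjustment over the 6 pairs of partner genes compared).

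HSP78, the ClpB-type disaggregase of the matrix, rose by 0.45 ± 0.05 on the log2 scale, or 1.37-fold (adjusted p = 0.00034 in limma). It was at 1.82, 1.92 and 1.85 on glycolaldehyde arrays, against 1.33, 1.37 and 1.39 on untreated arrays. The groups did not overlap, and the arrays within each group differed little.

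PIM1 encodes the Lon-type protease, which degrades misfolded and oxidised matrix proteins. Its signal was 2.59, 2.77 and 2.28 on glycolaldehyde arrays, against 1.68, 1.71 and 1.30 on untreated arrays. The groups did not overlap, but within each group the array of scan day 2 was the lowest. PIM1 rose by 0.71 ± 0.12 on the log2 scale, or 1.64-fold (adjusted p = 0.002 in limma), with the largest SE of the 9 genes. Within scan day 1 its log2 change was 0.66 ± 0.05, and between the 2 arrays of scan day 2 it was 0.81. The log2 change of PIM1 was 0.26 above that of HSP78, whose product also acts on damaged proteins. An exact permutation test gave a two-sided p of 0.3, where free splits of 3 against 3 cannot go below 0.1. Between same-numbered arrays the difference was 0.17, 0.20 and 0.41 for replicates 1 to 3, above 0 in all 3 pairs.

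SSC1, MDJ1 and MGE1 form the main Hsp70 system of the matrix, and their rises were smaller. SSC1, the essential Hsp70, was at 7.09, 7.27 and 6.85 on glycolaldehyde arrays, against 6.25, 6.67 and 5.88 on untreated arrays. The groups came close, with untreated replicate 2 just under glycolaldehyde replicate 3. SSC1 rose by 0.18 ± 0.06 on the log2 scale, or 1.13-fold (adjusted p = 0.048 in limma), which lies at the threshold. The call was lost in the 4 agreed arrays (log2 change 0.13, adjusted p = 0.189) and on leaving out glycolaldehyde replicate 1 (0.17, adjusted p = 0.124), glycolaldehyde replicate 2 (0.16, 0.153), untreated replicate 1 (0.17, 0.12) or untreated replicate 3 (0.13, 0.0927).

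MGE1, the GrpE-type exchange factor that resets Ssc1, was at 1.57, 1.59 and 1.40 on glycolaldehyde arrays, against 1.23, 1.27 and 1.15 on untreated arrays. In both groups replicate 3 was the lowest, and the groups did not overlap. MGE1 rose by 0.32 ± 0.07, or 1.25-fold (adjusted p = 0.0068 in limma). Its log2 change exceeded that of SSC1 by 0.14 (exact permutation p = 0.1, two-sided, 0.3 adjusted over the 6 pairs).

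MDJ1, the J-domain partner that stimulates the ATPase of Ssc1, was at 0.75, 0.708 and 0.765 on glycolaldehyde arrays, against 0.567, 0.579 and 0.702 on untreated arrays. Untreated replicate 3 stood apart from the other untreated arrays and nearly reached the lowest glycolaldehyde array. MDJ1 rose by 0.27 ± 0.09, or 1.21-fold (adjusted p = 0.034 in limma). Its log2 change was 0.35 ± 0.05 within scan day 1 and 0.12 between the arrays of scan day 2. Without untreated replicate 3 its adjusted p was 0.0018, and leaving out any other array ended the call, with adjusted p of 0.0928, 0.0541 and 0.0844 without glycolaldehyde replicates 1 to 3 and 0.114 and 0.111 without untreated replicates 1 and 2. The difference in log2 change between MDJ1 and SSC1 was 0.10 (exact permutation p = 0.6, two-sided).

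The other Hsp70 proteins of the matrix are Ssq1, a specialised Hsp70 that works in the assembly of iron-sulfur clusters, and Ecm10, a close paralog of Ssc1. SSQ1 was at 0.314, 0.311 and 0.297 on glycolaldehyde arrays, against 0.273, 0.274 and 0.244 on untreated arrays. The groups did not overlap, and replicate 3 was the lowest of each. SSQ1 rose by 0.22 ± 0.06 on the log2 scale, or 1.17-fold (adjusted p = 0.021 in limma). The call was lost in the 4 agreed arrays (log2 change 0.15, adjusted p = 0.101) and without glycolaldehyde replicate 1 (0.21, 0.076) or glycolaldehyde replicate 2 (0.21, 0.0719).

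ECM10 was at 0.106, 0.104 and 0.0993 on glycolaldehyde arrays, against 0.0969, 0.0979 and 0.105 on untreated arrays. The groups overlapped, with untreated replicate 3 near the highest glycolaldehyde array. Its log2 change was 0.04 ± 0.06, with a 95% interval of -0.09 to 0.18, and it did not pass (adjusted p = 0.592 in limma). The change was 0.10 ± 0.04 within scan day 1 (adjusted p = 0.058) and -0.08 between the 2 arrays of scan day 2. The log2 change of ECM10 minus that of SSC1 was -0.14 (exact permutation p = 0.2, two-sided), and that of SSQ1 minus SSC1 was 0.05 (p = 0.3). Cross-hybridisation between the SSC1 and ECM10 probes was not examined.

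**Figure D2:**
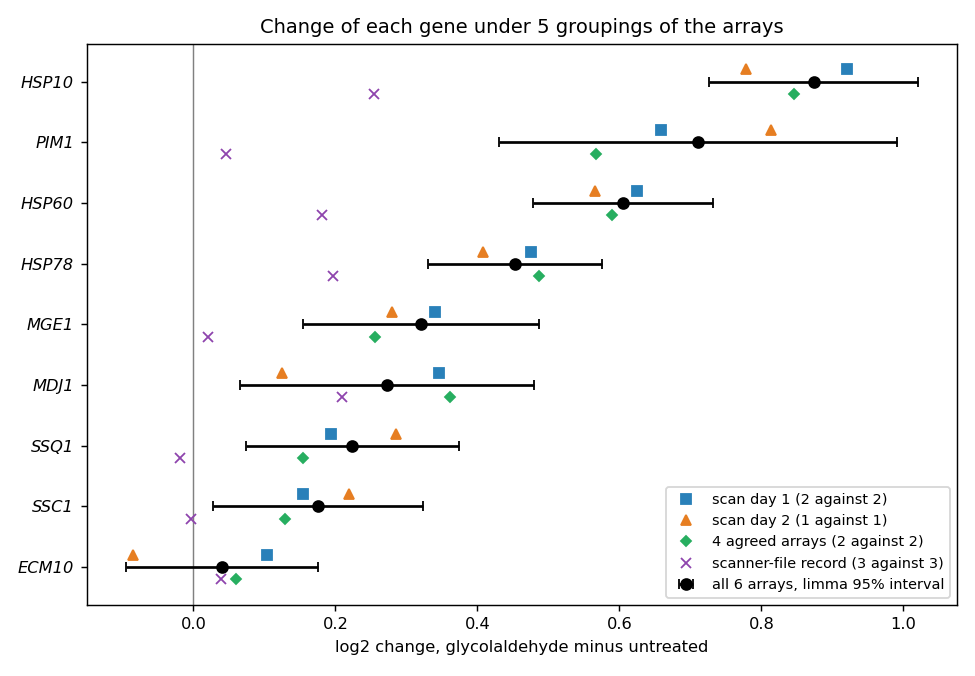
Log2 change (glycolaldehyde minus untreated, horizontal axis) of each of the 9 genes over all 6 arrays with limma's 95% interval (black), within scan days 1 and 2, in the 4 agreed arrays and with the scanner-file record. HSP10, PIM1, HSP60 and HSP78 stay above 0.4 in the first 4 groupings, and with the scanner-file record all 9 genes lie between -0.02 and 0.25.

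The order of the log2 changes, from high to low, was HSP10, PIM1, HSP60, HSP78, MGE1, MDJ1, SSQ1, SSC1 and ECM10. The 95% interval of HSP10 was 0.73 to 1.02, and that of HSP60 was 0.48 to 0.73. The interval of PIM1 was 0.43 to 0.99 and overlapped both. Intervals of neighbours in the order overlapped throughout. HSP10 stood at the 97.9th percentile of log2 changes over all genes tested, PIM1 at the 96.3rd, HSP60 at the 94.5th and HSP78 at the 89.4th, while SSC1 stood at the 67th and ECM10 at the 51.3rd. Scan day was present in both groups, and within scan day 1, with 2 arrays per group, 8 of the 9 genes passed, all upwards, where 70% of all genes tested passed, 39.9% upwards and 30.1% downwards. On scan day 2 there was 1 array per group and no test. Log2 changes were then 0.81 for PIM1, 0.78 for HSP10, 0.57 for HSP60 and 0.41 for HSP78. They were 0.28 for SSQ1 and MGE1, 0.22 for SSC1, 0.12 for MDJ1 and -0.08 for ECM10. The share of all genes higher on that day was not counted.

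**Figure D3:**
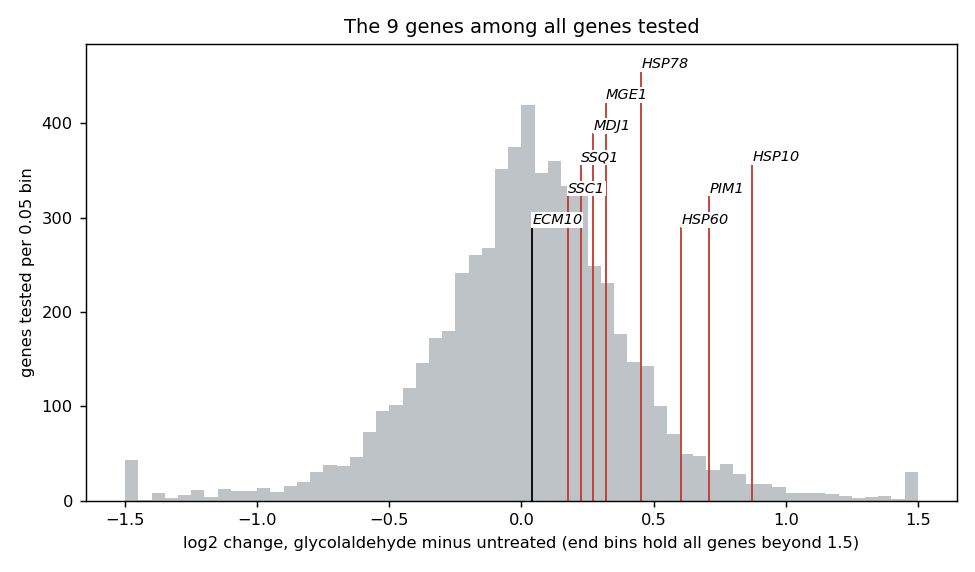
Number of genes per 0.05 step of log2 change over the 5944 genes tested (grey), with the 9 genes as vertical lines (red, passed; black, did not pass); line heights carry no value. SSC1 and ECM10 lie within the bulk of all genes, and HSP10, PIM1 and HSP60 lie in its upper tail.

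Genes around this set were read from lists drawn up by function. The 6 mitochondrial lists (import across either membrane, the intermembrane space, other folding factors, other proteases and iron-sulfur cluster assembly) held 71 genes, of which 34 (47.9%) rose and 6 fell, while 31 missed the threshold. Their median log2 change was 0.21. The 4 agreed arrays gave 29 that rose and 8 that fell.

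The inner membrane import channel and motor, which contains Ssc1 itself, moved both ways. Of its 10 other genes 2 rose and 2 fell, and the median log2 change of all 10 was -0.01 (2 rose and 4 fell in the 4 agreed arrays). The J-domain protein gene PAM18 and its partner PAM16, which regulate Ssc1 at the channel, rose by 0.23 ± 0.06 and 0.29 ± 0.06 (adjusted p = 0.012 and 0.0037 in limma), and PAM18 did not pass in the agreed arrays (0.17, adjusted p = 0.0768). MDJ2, a relative of PAM18, fell by 0.58 ± 0.06 (adjusted p = 0.00027), and TIM50, the receptor of the channel, fell by 0.21 ± 0.06 (adjusted p = 0.02). The MDJ2 probe was dim, at 0.0273, 0.0246 and 0.0270 on glycolaldehyde arrays, against 0.0375, 0.0399 and 0.0407 on untreated arrays. TIM44, which tethers Ssc1 to the channel, had a log2 change of -0.10 ± 0.10 and did not pass (adjusted p = 0.448). In the agreed arrays, which leave out the untreated array of scan day 2, it fell by 0.23 (adjusted p = 0.045). On that day TIM44 was at 0.524 with glycolaldehyde and 0.490 without it. TIM23, of the same channel, had a log2 change of -0.19 ± 0.09 and did not pass (adjusted p = 0.122 in limma). In the agreed arrays TIM23 fell by 0.31 (adjusted p = 0.0206 in limma). On scan day 2 it was at 0.682 with glycolaldehyde and 0.736 without it. Whether scan day accounts for these calls was not tested.

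Among other mitochondrial proteases and peptidases 10 of 17 genes rose, 0 fell and 7 did not pass (median 0.27), while in the agreed arrays 8 rose and 1, AFG3, fell. YTA12, a subunit of the matrix-facing m-AAA protease, rose by 0.64 ± 0.07 (adjusted p = 0.00033 in limma). Its partner subunit AFG3 had a log2 change of -0.16 ± 0.08 and did not pass (adjusted p = 0.148), against -0.24 in the agreed arrays (adjusted p = 0.0343). On scan day 2, whose untreated array the agreed arrays leave out, AFG3 was at 0.294 with glycolaldehyde and 0.284 without it. MGR3, an adaptor of the i-AAA protease, rose by 0.62 ± 0.11, and PCP1, the rhomboid protease of the inner membrane, rose by 0.53 ± 0.05. Among other folding factors 4 of 9 rose and 0 fell (median 0.25), with the same counts in the agreed arrays. The prohibitin genes PHB2 and PHB1, whose products form a ring in the inner membrane that binds the m-AAA protease, rose by 0.69 ± 0.08 and 0.41 ± 0.09. ZIM17, the factor that keeps Ssc1 soluble, had a log2 change of 0.08 ± 0.08 and did not pass (adjusted p = 0.421).

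Iron-sulfur cluster assembly, the process that Ssq1 serves, held the largest fall of the 6 lists. Of 13 genes 8 rose, 3 fell and 2 did not pass (median 0.21), and in the agreed arrays 5 rose and 3 fell. YAH1, the mitochondrial ferredoxin, fell by 0.92 ± 0.08, ISA1, which acts late in the assembly of clusters, fell by 0.58 ± 0.10, and ISU1, the main scaffold protein that Ssq1 acts on, fell by 0.47 ± 0.06 (adjusted p = 9e-05, 0.0023 and 0.00057 in limma). ISU2, the other scaffold gene, rose by 0.35 ± 0.08, and ISD11, which stabilises the cysteine desulfurase, rose by 0.41 ± 0.06. JAC1, the J-domain partner of Ssq1, had a log2 change of -0.08 ± 0.06 and did not pass (adjusted p = 0.332).

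Import genes of the outer membrane and the intermembrane space held 5 of 12 and 5 of 10 genes that rose, with 1 and 0 that fell (5 and 5 that rose and 0 that fell in the agreed arrays). MIA40, the receptor of the oxidative import route into the intermembrane space, rose by 0.78 ± 0.10 (adjusted p = 0.00053 in limma). SAM37 and SAM50, of the complex that inserts barrel proteins into the outer membrane, rose by 0.57 ± 0.06 and 0.53 ± 0.05. TOM40, the pore of the outer membrane, fell by 0.23 ± 0.07 (adjusted p = 0.031) and did not pass in the agreed arrays (-0.19, adjusted p = 0.0532).

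Chaperones of other compartments are given for comparison. The cytosolic Hsp70 and Hsp90 list also holds small heat shock proteins and factors that handle aggregates. Of its 23 genes 18 rose and 2 fell (17 and 2 in the 4 agreed arrays), with a median log2 change of 0.55. Of 14 chaperone and oxidative folding genes of the endoplasmic reticulum 10 rose and 0 fell (11 and 0 in the agreed arrays; median 0.38). All 8 genes of the cytosolic chaperonin CCT, a distant relative of Hsp60, rose (6 in the agreed arrays; median 0.39), between 0.19 for CCT6, which did not pass in the agreed arrays (adjusted p = 0.0867), and 0.53 for TCP1. The median of the 9 matrix genes was 0.32, and no test of the differences between these lists was made. The largest rises in the cytosolic Hsp70 and Hsp90 list, 1.49 ± 0.06 for the sorting factor BTN2 and 1.45 ± 0.07 for the Hsp90 co-chaperone HCH1, were well above the 0.87 of HSP10. The cytosolic Hsp104, the relative of Hsp78, had a log2 change of 0.12 ± 0.06 and did not pass (adjusted p = 0.104 in limma).

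**Figure D4:**
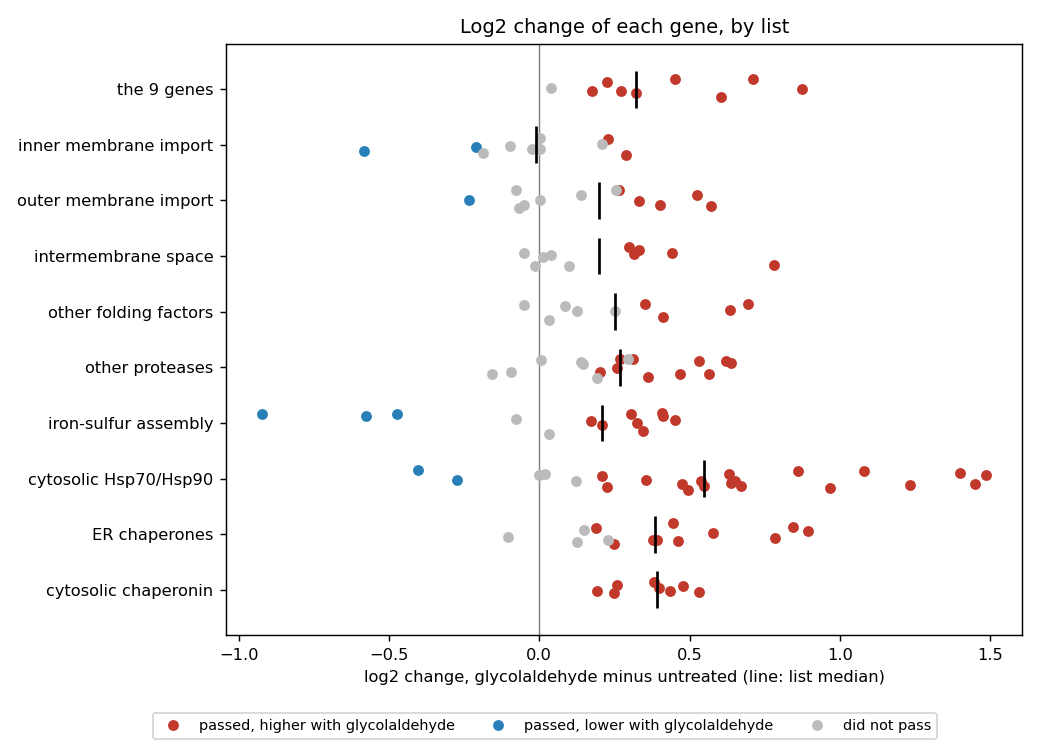
Log2 change (glycolaldehyde minus untreated, horizontal axis) of each gene in the 9 matrix genes and 9 comparison lists; red and blue points passed upwards and downwards, grey points did not pass, and black lines are list medians. The matrix genes lie between 0.04 and 0.87, the cytosolic Hsp70 and Hsp90 list reaches 1.49, and iron-sulfur assembly extends down to -0.92.

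The genes with patterns most like those of SSC1, HSP60 and PIM1 were found by the root mean square difference of mean-centred log2 signal over the 6 arrays. Nearest to SSC1 were SEC39 and VAM6, of vesicle traffic and vacuole fusion, at 0.018 each, and GCD10, of a tRNA methyltransferase, at 0.023. Nearest to HSP60 were RRD2, an activator of protein phosphatase 2A, at 0.023, MRP8 at 0.024 and CAK1, the kinase that activates cyclin-dependent kinase, at 0.027. Nearest to PIM1 were RPT4, an ATPase of the proteasome base, at 0.041, RRT5 at 0.049 and FMP52 at 0.05. RPT4 was at 1.09, 1.11 and 0.949 on glycolaldehyde arrays, against 0.701, 0.672 and 0.553 on untreated arrays, so that it too was lowest on the arrays of scan day 2 in each group.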

How the data were processed

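Spot intensities were extracted by the authors with Agilent Feature Extraction 11.0.1.1, per the file headers, as processed signals after background subtraction, with no normalization between arrays. The submitters' processing notes also list R 3.0.2, with no role. The deposited value table holds the intensity of each of 6256 probes as the mean of its 7 spots (each column matched 1 scanner file, relative tolerance 1e-06); 0 columns were without a sample. Column medians were 3307, 3373 and 5055 for glycolaldehyde replicates 1 to 3 and 3545, 3346 and 4612 for untreated replicates 1 to 3, and scale and centring are those of the processed signal. Also used, per the file headers, were flags for spots well above background, outlier and saturated spots and the median spot and background intensities.

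Log2 values minus the array's 75th percentile were tested with limma 3.58.1 (lmFit, eBayes; R 4.3.3) in a model of treatment alone, two-sided and Benjamini-Hochberg adjusted over all genes tested. A probe counted as above background on an array when over 0.5 of its spots did, and was tested when above background throughout either group; the brightest probe stood for the 29 genes with several. The fitting step was tested on simulated data. Names come from the reference table of assembly R64 (5748 probes matched); no coordinates or sequences are given, since the headers name an older build and no sequence was used here. The named genes are the 9 genes, from each list called genes with the largest changes (at most 4 per direction), any stress regulator or strain marker, and the 3 genes most like SSC1, HSP60 and PIM1. TIM44, TIM23, AFG3, ZIM17, JAC1, HSP104 and CCT6 were named outside that rule, after their values were seen. Members and lists were chosen with earlier results of these data known. The normexp alternative was planned on the mean spot signal and was run on the median, the column used here.

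Same-numbered arrays correlated with 0.331, 0.409 and 0.625 in their deviations from the group means over 5905 probes, each over 0.1, the limit set for taking same numbers as pairs. The values reported come from the fit without the replicate number, and the fit with it is an alternative. The pairing comes from these data and from the slide and scan day that replicate 3 of both groups shares.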

Additional observations from a re-analysis of the deposited data

How the results depend on the processing

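With the scanner-file record 0 genes rose and 0 fell, 0 of them among the 9; log2 changes were then 0.21 for MDJ1, 0.020 for MGE1, 0.18 for HSP60, 0.25 for HSP10, 0.20 for HSP78 and 0.046 for PIM1, and turned to -0.0039 for SSC1 and -0.019 for SSQ1. Across the other 13 tested alternatives that leave no single array out, HSP60, HSP10, HSP78, PIM1 and MGE1 passed in all 13, SSQ1 and MDJ1 in 12, SSC1 in 9 and ECM10 in 0. Between 6 and 8 of the 9 genes rose. Of all genes, 1565 (26.2%, 4 agreed arrays) to 2377 (39.9%, scan day 1) rose. These 13 are not independent checks. The mean of several probes and both changes of the filter could not change the log2 changes of the 9 genes, each with 1 probe. Averaging replicates 1 and 2 gave nearly the same SE for all 9, 0.0765 to 0.078. In the 4 agreed arrays, with scan day 2 on the glycolaldehyde side alone, SSC1 (0.13) and SSQ1 (0.15) no longer passed. SSC1 was also lost with normexp background correction (0.19) and no filter on dim probes (0.18). Scaling to the array median lost SSC1 (0.15) and MDJ1 (0.24). The cause was not tested. On scan day 2, with no test, log2 changes were 0.12 for MDJ1, 0.78 for HSP10, 0.41 for HSP78 and -0.085 for ECM10. Leaving out each array in turn gave 5 to 7 of the 9 genes that rose, with log2 changes of 0.13 to 0.22 for SSC1, 0.22 to 0.37 for MDJ1 and 0.17 to 0.25 for SSQ1, and 1363 to 1883 genes that rose and 1121 to 1495 that fell over all genes. With the replicate block 8 of the 9 genes rose, and it called 2174 genes up and 1730 down against 1761 and 1397 without it; it changed no call among the 9.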

Other observations

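Genes of stress regulators also moved both ways. YAP1, the regulator of the oxidative stress response, rose by 0.79 ± 0.05 on the log2 scale, RPN4, the regulator of proteasome genes, rose by 0.79 ± 0.06, and HAP4, the activating subunit of the regulator of respiratory genes, rose by 0.81 ± 0.05 (adjusted p = 2.1e-05, 5.5e-05 and 3.1e-05 in limma, n = 3 per group). HSF1, the heat shock factor, rose by 0.30 ± 0.06 (adjusted p = 0.0037). MSN2 and MSN4, regulators of the general stress response, fell by 0.44 ± 0.06 and 0.42 ± 0.13 (adjusted p = 0.00083 and 0.026). Of the 11 regulator genes 7 rose, 2 fell and 2 did not pass, and in the 4 agreed arrays 6 rose and 2 fell.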
